A study of Homo sapiens with 6 samples.

Results

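The genes described here carry symbols that begin with ZNF and lie on human autosomes other than chromosomes 18, 19 and 21, and thus outside the large zinc finger clusters of chromosome 19. They were chosen as the array probe sets whose annotation names exactly 1 gene, with such a symbol and such a place in the RefSeq gene table. The rule gave 233 genes on 18 chromosomes, read by 242 probe sets, out of 18378 genes and 21062 probe sets tested. Of the 233 genes, 219 were protein coding, 9 were pseudogenes and 5 were long non-coding RNAs. The experiment compared total RNA of HEK-BAHD1 cells, a HEK293 line with 1 integrated copy of the BAHD1 cDNA under the cytomegalovirus (CMV) promoter, with that of HEK-CT cells, an isogenic line with an out-of-frame β-galactosidase insert. HEK293 is an established line of human embryonic kidney origin, and both lines were kept in medium with hygromycin. Each line was measured on 3 Affymetrix arrays of 3 cultures. Both lines were stable pools, so a p-value covers culture-to-culture variation of a single pool for each line, and the supplement gives a later passage for 1 of the HEK-BAHD1 cultures.

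Most ZNF genes encode proteins with C2H2 zinc fingers, small folds held by a zinc ion that read DNA a few bases at a time. Many of them also carry a KRAB domain, which binds the scaffold protein TRIM28. TRIM28 brings the histone methyltransferase SETDB1 and heterochromatin protein HP1, so that KRAB zinc finger proteins are known as repressors of transposable elements and of some genes. BAHD1 is a chromatin protein that takes part in heterochromatin formation. ZNF genes arose largely by tandem duplication and often lie side by side.

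As a check of the labels, BAHD1 itself was read on each array before any ZNF gene. It had log2 signals of 6.75, 7.0 and 6.76 on the arrays labelled HEK-BAHD1, against 10.06, 9.81 and 9.93 on the arrays labelled HEK-CT. The overexpressed gene was thus lower under the HEK-BAHD1 label, by a log2 difference of -3.10 (SE, the standard error, 0.093, limma adjusted p = 3.12e-05, n = 3 arrays per line), which goes against the labels. It also runs opposite to the study's own measurements of BAHD1 in these lines by other methods, which are not used here. Every direction below is that of the labels as deposited, HEK-BAHD1 minus HEK-CT, and would turn round if the labels were exchanged. Values are log2 signals made with the RMA procedure, in which the probes of a gene are summarised after background correction and normalization between arrays. Array medians over the 21062 probe sets lay between 6.43 and 6.46 on arrays labelled HEK-BAHD1 and between 6.40 and 6.42 on those labelled HEK-CT. Of 8 genes listed as HEK293 markers, all 8 were measured, with mean log2 signals of 4.87 to 11.6. The measured markers of leukocytes, hepatocytes and endothelium lay at or below 5.69. The ranges overlapped, with NEFM at 4.87 below the hepatocyte marker APOA1 at 5.69. Of the HEK293 markers, VIM and LIN28B fell, by 0.28 and 0.49 (adjusted p = 0.0235 and 0.00524), and NEFM and NEFL rose, by 0.77 and 0.40 (adjusted p = 0.0130 and 0.00766). The summed log2 signal of the 8 was 72.7 to 73.1 on the arrays labelled HEK-BAHD1 and 72.2 to 72.8 on those labelled HEK-CT, and its part in the results was not tested. The summed log2 signal of the 2 endothelial markers was 8.44 to 8.69 on the arrays labelled HEK-BAHD1 and 8.17 to 8.38 on those labelled HEK-CT, and its part in the results was not tested. In bulk RNA, fewer cells with a transcript and less transcript per cell cannot be told apart.

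The ZNF genes outside chromosome 19 were more often lower than higher on the arrays labelled HEK-BAHD1. A gene was called at a limma adjusted p under 0.05 (Benjamini-Hochberg over all probe sets tested) together with a difference of group medians above 0.2. By this rule 38 of the 233 genes (16.3%) fell, against 6.39% of all probe sets tested. Only 6 genes (2.58%) rose, against 6.79% of all probe sets, and 189 were not called. ZNF10, whose KRAB domain is widely used as a synthetic repressor, had the largest fall, and ZNF22 the largest rise. The median log2 difference was -0.09 over the ZNF genes and 0.0033 over all probe sets, and 151 of the 233 genes lay below 0. All 3 arrays labelled HEK-BAHD1 lay below all 3 labelled HEK-CT for 78 genes (33.5%), against 16.9% of all probe sets, and above them for 20 genes (8.58%), against 16.7% of all probe sets. The median log2 signal of the 233 genes was 6.68, 6.76 and 6.70 on the arrays labelled HEK-BAHD1, against 6.90, 6.90 and 6.93 on those labelled HEK-CT. The groups did not overlap in this median, while the median over all probe sets ran the other way. At an unadjusted p under 0.05, 80 of the genes were lower (34.3%) and 15 higher (6.44%), against 14.8% and 14.5% of all probe sets. The count of lower genes depended on single arrays: it was 20 without HEK-BAHD1 replicate 1, 23 without HEK-BAHD1 replicate 3, 21 without HEK-CT replicate 2 and 20 without HEK-CT replicate 3. The count of higher genes was 3 without HEK-BAHD1 replicate 3, HEK-CT replicate 2 or HEK-CT replicate 3 and 4 without HEK-BAHD1 replicate 1 or HEK-CT replicate 1. In the order named, 4.29%, 4.45%, 3.83%, 4.42% and 4.40% of all probe sets were higher in those fits.

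Like groups of genes were counted in the same fit. Of 237 ZNF genes on chromosome 19, 108 were lower (45.6%) and 3 higher (1.27%), against 6.39% and 6.79% of all probe sets. Their median log2 difference was -0.26. The genes outside chromosome 19 thus moved in the same direction, with fewer lower calls (16.3%) and a smaller median. The 15593 other genes on the chromosomes of the 233 ZNF genes had 5.34% lower and 7.43% higher calls and a median of 0.013. The differences between these groups were not tested, because genes are not replicates.

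The calls were spread unevenly over the range of signal. The 59 ZNF genes with the lowest mean signals, at or below a log2 signal of 5.86, held 1 lower call (1.69%) and 2 higher calls (3.39%), against 2.06% and 3.52% of the 8986 probe sets in that range, and their median log2 difference was 0.017. The 174 brighter ZNF genes held 37 lower calls (21.3%), against 9.61% of the 12076 probe sets in the same range of signal, and 4 higher calls (2.30%), against 9.22%. Their median log2 difference was -0.13. The 5 long non-coding RNAs included no call.

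**Figure D1:**
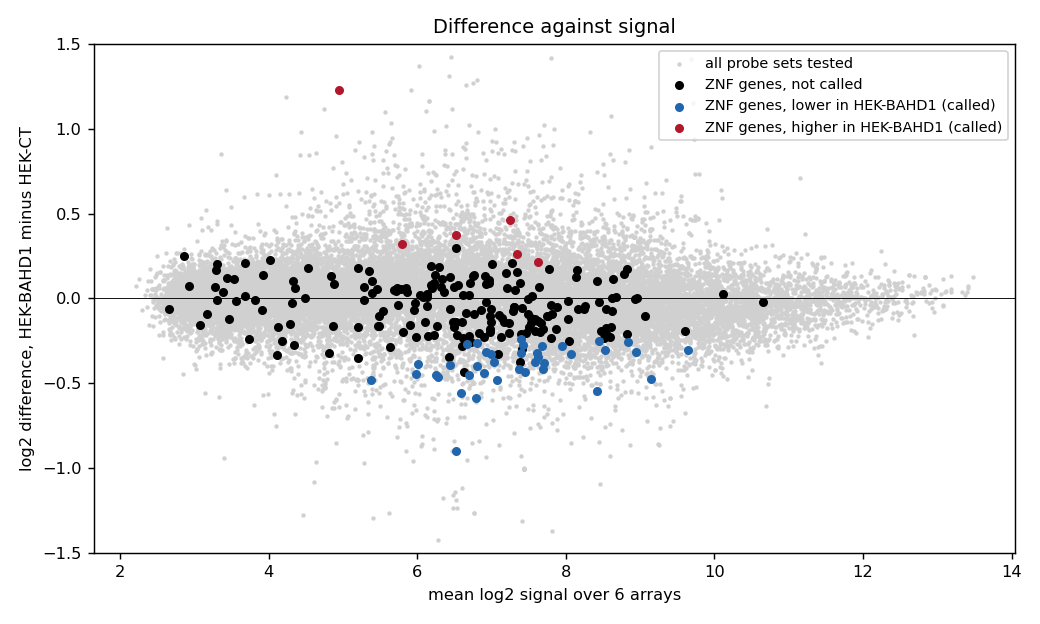
Log2 difference of HEK-BAHD1 minus HEK-CT (vertical axis) against the mean log2 signal over 6 arrays (horizontal axis), with all 21062 probe sets tested in grey and the 233 ZNF genes in black (not called), blue (called lower) or red (called higher). The 38 blue points lie mostly above a signal of 5.86, and 10 probe sets lie beyond the vertical limits of 1.5.

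The run of neighbouring ZNF genes near the end of chromosome 12 fell as a whole. It held ZNF605, ZNF26, ZNF84, ZNF140, ZNF10 and ZNF268, with no other measured gene between them, and all 6 were called lower. All 6 encode KRAB zinc finger proteins. These 6 were also the only calls among the 11 ZNF genes of chromosome 12, while 4.74% of the other measured genes of that chromosome were lower. The stretches before the start of 4 of them are shown because each holds a match to ANNTGTAGT, the core of a site bound by the zinc finger activator ZNF143, searched on both strands. Sequences are from RefSeq, build GRCh38.p14, read 5′ to 3′ along the gene, with the match in capitals. They lie at chr12:132956319-132956357 (minus strand), chr12:132986284-132986322, chr12:133080676-133080837 and chr12:133181430-133181468 (plus strand).
ZNF605: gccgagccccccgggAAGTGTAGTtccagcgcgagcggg
ZNF26: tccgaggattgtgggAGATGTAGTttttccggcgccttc
ZNF140: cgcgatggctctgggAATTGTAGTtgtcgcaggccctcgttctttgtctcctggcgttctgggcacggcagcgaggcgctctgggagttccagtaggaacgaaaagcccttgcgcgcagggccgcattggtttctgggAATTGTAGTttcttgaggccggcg
ZNF268: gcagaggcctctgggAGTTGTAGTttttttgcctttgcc
ZNF140 had 2 matches. The other two genes of the run, ZNF84 and ZNF10, had none in the 250 bases before their starts. Among all 35116 windows of that length, 3.22% held a match, and among those of the ZNF genes described here 9.02%. A match is a description of the letters and not evidence of binding.

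The upstream 250 bases of ZNF10 are given in full because it had the largest fall of all 233 genes. They lie at chr12:133130377-133130626 on the plus strand, and the capitals mark copies of the GC box GGGCGG, of the box spelled CCAAT and of the cyclic AMP response element with the letters TGACGTCA. Both strands were searched, and the matches did not overlap.
ZNF10: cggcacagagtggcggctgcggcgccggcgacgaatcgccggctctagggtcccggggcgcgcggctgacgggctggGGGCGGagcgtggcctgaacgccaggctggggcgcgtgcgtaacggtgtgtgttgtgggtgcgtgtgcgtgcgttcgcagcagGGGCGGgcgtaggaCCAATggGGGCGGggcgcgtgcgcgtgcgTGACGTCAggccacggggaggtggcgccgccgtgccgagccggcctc
The response element occurred in 1.65% of all windows, the CCAAT box in 32.0% and the GC box in 42.6%. Among windows of the ZNF genes described here, these shares were 2.87%, 39.8% and 54.9%.

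ZNF10 had log2 signals of 6.08, 6.11 and 6.04 on the arrays labelled HEK-BAHD1, against 6.72, 7.15 and 7.06 on those labelled HEK-CT. All arrays labelled HEK-BAHD1 lay below all those labelled HEK-CT, with an SD of 0.035 on the arrays labelled HEK-BAHD1 and 0.23 on those labelled HEK-CT. The log2 difference was -0.90 (SE 0.11, limma adjusted p = 0.00296). ZNF268 had log2 signals of 7.14, 7.13 and 7.23 on the arrays labelled HEK-BAHD1, against 7.66, 7.57 and 7.52 on those labelled HEK-CT, with a log2 difference of -0.42 (SE 0.061, adjusted p = 0.00629). ZNF26 had 7.38, 7.47 and 7.51 on the arrays labelled HEK-BAHD1, against 7.73, 7.90 and 7.77 on those labelled HEK-CT. Its log2 difference was -0.35 (SE 0.067, adjusted p = 0.0165). The groups overlapped in none of these genes.

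The remaining members of the run fell by less. ZNF84 read 7.57, 7.54 and 7.51 on the arrays labelled HEK-BAHD1, against 7.84, 7.77 and 7.86 on those labelled HEK-CT (log2 difference -0.28, adjusted p = 0.0153). ZNF140 read 7.83, 7.89 and 7.72, against 7.99, 8.19 and 8.10 on the arrays labelled HEK-CT (log2 difference -0.28, adjusted p = 0.0444). ZNF605 read 6.53, 6.52 and 6.55 on the arrays labelled HEK-BAHD1, against 6.71, 6.88 and 6.81 on those labelled HEK-CT (log2 difference -0.27, adjusted p = 0.0281). No array of 1 line reached into the range of the other in these genes. The calls of ZNF10 and ZNF268 held whichever array was left out. The run kept between 3 and 5 calls across these removals, with 3 without HEK-BAHD1 replicate 1 or HEK-CT replicate 3.

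**Figure D2:**
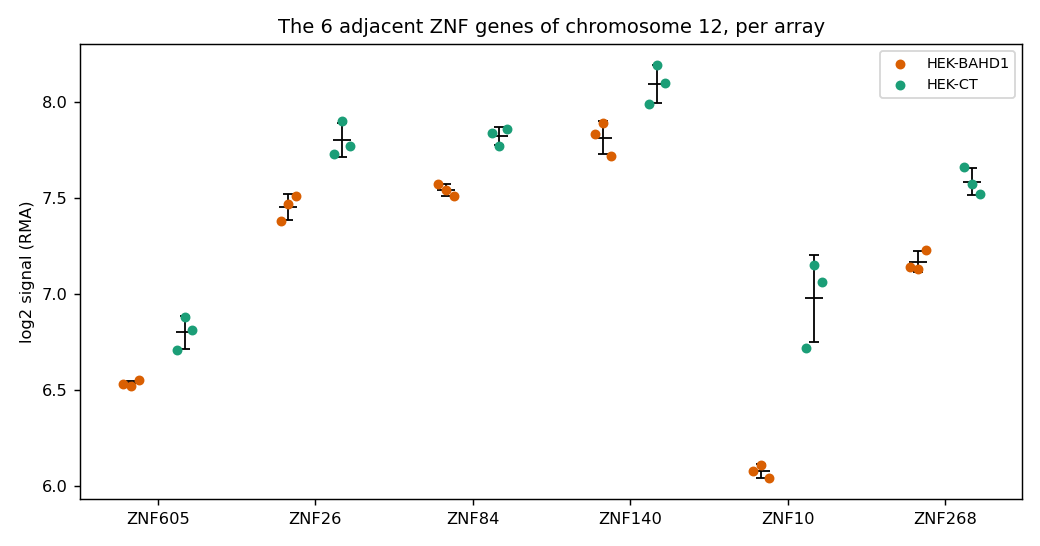
Log2 signal (vertical axis) of the 6 neighbouring ZNF genes of chromosome 12 on each array, HEK-BAHD1 in orange and HEK-CT in green; points are arrays, and the bars give the mean and SD of 3 arrays. In every gene the arrays labelled HEK-BAHD1 lie below those labelled HEK-CT, with the widest gap in ZNF10.

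On chromosome 7 a run of 9 genes was split. ZNF680, ZNF107 and ZNF92 were called lower, ZNF138, ZNF273 and ZNF117 lay below 0 without a call, and ZNF479, ZNF716 and ZNF679, which were dim, lay near 0. The last 100 bases before the start of 5 of these genes are shown because they were alike. They lie at chr7:64563072-64563171 (minus strand) and at chr7:64666033-64666132, chr7:64794328-64794427, chr7:64903173-64903272 (the second of its 2 starts) and chr7:65373755-65373854 (plus strand), with CCAAT boxes in capitals.
ZNF680: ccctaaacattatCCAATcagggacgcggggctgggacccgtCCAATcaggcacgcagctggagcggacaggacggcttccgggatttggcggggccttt
ZNF107: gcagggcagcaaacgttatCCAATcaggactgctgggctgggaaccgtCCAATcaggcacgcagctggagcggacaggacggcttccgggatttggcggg
ZNF138: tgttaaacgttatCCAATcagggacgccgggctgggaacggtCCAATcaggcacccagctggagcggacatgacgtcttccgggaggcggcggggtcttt
ZNF273: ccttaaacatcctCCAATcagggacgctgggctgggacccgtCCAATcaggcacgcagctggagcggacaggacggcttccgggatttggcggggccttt
ZNF92: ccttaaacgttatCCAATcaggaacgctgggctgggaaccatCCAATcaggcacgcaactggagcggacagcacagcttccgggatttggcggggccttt
Each of the 5 held 2 CCAAT boxes, and 9.53% of all windows held at least 2. The share was 13.5% among windows of the ZNF genes described here and 17.3% among those of RefSeq ZNF genes on chromosome 19. In the same run, ZNF716 and a window of ZNF479, which lay near 0, also held 2 in their 250 bases. Over their 250 bases, ZNF680 and ZNF273 shared an unbroken stretch of 72 bases, ZNF680 and ZNF107 one of 56 bases, and ZNF138 and ZNF92 one of 37 bases. ZNF117 shared at most 8 bases in a row with any of them, at the start given by RefSeq.

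ZNF680 had log2 signals of 6.58, 6.52 and 6.40 on the arrays labelled HEK-BAHD1, against 6.94, 7.30 and 7.02 on those labelled HEK-CT (log2 difference -0.59, SE 0.10, adjusted p = 0.0107). ZNF107 had 6.31, 6.37 and 6.26 on the arrays labelled HEK-BAHD1, against 6.81, 6.88 and 6.93 on those labelled HEK-CT (log2 difference -0.56, SE 0.059, adjusted p = 0.00194). ZNF92 had 6.68, 6.72 and 6.64 on the arrays labelled HEK-BAHD1, against 7.10, 7.27 and 6.99 on those labelled HEK-CT (log2 difference -0.44, SE 0.078, adjusted p = 0.0122). The calls of these 3 genes held whichever array was left out. ZNF273 was at 7.36, 7.20 and 7.02 on the arrays labelled HEK-BAHD1, against 7.44, 7.78 and 7.48 on those labelled HEK-CT, with a log2 difference of -0.37 that missed the threshold (adjusted p = 0.0737). ZNF138 was at 6.35, 6.10 and 6.31 on the arrays labelled HEK-BAHD1, against 6.45, 6.76 and 6.58 on those labelled HEK-CT (log2 difference -0.34, adjusted p = 0.0581). In both the groups did not overlap, as also in ZNF117 (log2 difference -0.16, adjusted p = 0.0731). A second, dimmer probe set of ZNF138 ran the other way, at 0.17 (adjusted p = 0.268). ZNF479, ZNF716 and ZNF679 had mean signals of 3.69 or less in either line and log2 differences of 0.040, 0.017 and -0.01. Because the copies are alike, probes may read more than 1 of them, and the levels of single genes in this run are uncertain to that extent.

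Runs were defined as at least 3 ZNF genes of 1 chromosome with at most 5 other measured genes between neighbours. There were 14 runs with 87 genes, of which 24 were lower (27.6%) and 2 higher (2.30%), and 13 of the 14 had a median below 0. Outside runs, 14 of 146 genes were lower (9.59%) and 4 higher (2.74%). Of all probe sets tested, 6.39% were lower and 6.79% higher. The median log2 difference was -0.16 in runs and -0.05 outside them. The 2 runs just described contributed 9 of the 24 lower genes. Of these 24, between 14 and 20 kept the call when 1 array was left out, with 14 when the array was HEK-BAHD1 replicate 1 or HEK-CT replicate 3. Of the 14 outside, 4 to 7 kept it, with 4 when the array was HEK-CT replicate 2, 5 when it was HEK-CT replicate 3 or HEK-BAHD1 replicate 3, 6 when it was either other HEK-BAHD1 array and 7 when it was HEK-CT replicate 1. Across these removals 2.76% to 4.45% of all probe sets were lower.

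**Figure D3:**
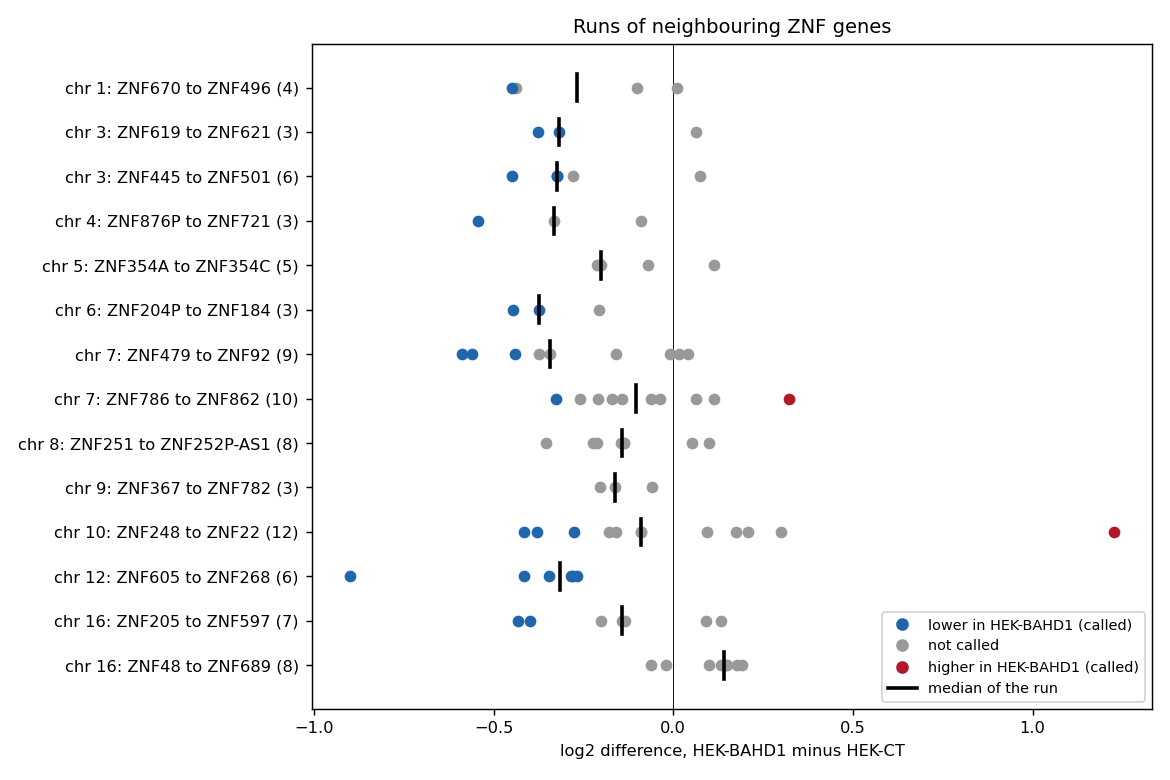
Log2 difference of HEK-BAHD1 minus HEK-CT (horizontal axis) for each ZNF gene of the 14 runs (rows, with chromosome and number of genes); blue and red points are called lower and higher, grey points are not called, and black bars are run medians. The run of chromosome 12 is blue throughout, and the run ZNF48 to ZNF689 of chromosome 16 is the only one with a median above 0.

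On chromosome 3, 2 runs held 5 of the 6 lower genes of the chromosome. In the run ZNF619 to ZNF621, ZNF620 and ZNF621 fell by 0.32 and 0.38 on the log2 scale (adjusted p = 0.0206 and 0.0359), while ZNF619 was at 0.06 (adjusted p = 0.686). In the run ZNF445 to ZNF501, ZNF852 read 6.46, 6.52 and 6.44 on the arrays labelled HEK-BAHD1, against 6.91, 6.90 and 6.96 on those labelled HEK-CT (log2 difference -0.45, SE 0.053, adjusted p = 0.00286). ZNF445, which helps to maintain genomic imprints, fell by 0.32 (adjusted p = 0.0222), as did ZNF35 (adjusted p = 0.0392). ZNF502 and ZNF501 were at -0.32 and -0.28 without a call (adjusted p = 0.195 and 0.0512), and ZNF660, at a mean signal under 3 in both lines, was at 0.07 (adjusted p = 0.593). The sixth lower gene of chromosome 3, ZNF654, lay outside the runs and fell by 0.46 (adjusted p = 0.0456). Only 1 of these 6 calls remained without HEK-BAHD1 replicate 1 or without HEK-CT replicate 3, and 2 without HEK-BAHD1 replicate 3 or HEK-CT replicate 2.

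On chromosome 10, the run ZNF248 to ZNF22 had both directions. ZNF37A read 7.44, 7.55 and 7.55 on the arrays labelled HEK-BAHD1, against 7.89, 7.84 and 7.95 on those labelled HEK-CT (log2 difference -0.38, adjusted p = 0.00814). Its pseudogene copy ZNF37BP read 7.53, 7.48 and 7.43 on the arrays labelled HEK-BAHD1, against 7.95, 7.85 and 7.89 on those labelled HEK-CT (log2 difference -0.42, adjusted p = 0.00467). ZNF33B fell by 0.28 (adjusted p = 0.0332), whereas its copy ZNF33A was at -0.18 (adjusted p = 0.0626). Probes may not separate ZNF37A from ZNF37BP or ZNF33A from ZNF33B, so these pairs do not count as independent. ZNF25, ZNF239, ZNF485 and ZNF22-AS1 lay above 0, at 0.30, 0.09, 0.17 and 0.21, without a call, and ZNF248, ZNF487 and ZNF32 lay at -0.09, -0.16 and -0.09 without a call. The chromosome had 4 lower calls, of which the fourth was ZNF503, a transcriptional corepressor (log2 difference -0.33, adjusted p = 0.0146), and 2 remained without HEK-CT replicate 3. A second, dimmer probe set of ZNF503 was at 0.26 (adjusted p = 0.0887).

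The 2 runs of chromosome 16 differed in direction of the median. In the run ZNF205 to ZNF597, ZNF75A read 7.22, 7.26 and 7.23 on the arrays labelled HEK-BAHD1, against 7.67, 7.66 and 7.68 on those labelled HEK-CT, among the tightest groups of all (log2 difference -0.43, SE 0.049, adjusted p = 0.00257). Its second, dimmer probe set was at -0.22 with overlapping groups and was not called (adjusted p = 0.159). ZNF597, an imprinted gene expressed from the maternal copy, read 6.65, 6.52 and 6.63 on the arrays labelled HEK-BAHD1, against 6.92, 7.04 and 7.04 on those labelled HEK-CT (log2 difference -0.40, adjusted p = 0.00842). The other genes of that run, ZNF205, ZNF213, ZNF200, ZNF263 and ZNF174, lay between -0.20 and 0.13 without a call. In the run ZNF48 to ZNF689, none of 8 genes was called at these thresholds, 6 of them lay above 0, and the median was 0.14. The highest were ZNF688 and ZNF785, at 0.19 and 0.18 (adjusted p = 0.169 and 0.231). The difference between the 2 runs was not tested.

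Further runs held single or paired calls. On chromosome 6, ZNF204P, a pseudogene, and ZNF391 fell by 0.37 and 0.45 (adjusted p = 0.0186 and 0.00592), and ZNF184 was at -0.21 (adjusted p = 0.0817). ZNF391 read 5.76, 5.74 and 5.78 on the arrays labelled HEK-BAHD1, against 6.11, 6.20 and 6.31 on those labelled HEK-CT. On chromosome 4, ZNF721 read 8.09, 8.12 and 8.24 on the arrays labelled HEK-BAHD1, against 8.66, 8.71 and 8.71 on those labelled HEK-CT (log2 difference -0.54, SE 0.060, adjusted p = 0.00226). Its neighbours ZNF876P and ZNF732 were at -0.33 and -0.09 (adjusted p = 0.0567 and 0.521). On chromosome 1, ZNF669 fell by 0.45 (adjusted p = 0.0160, and 0.0558 without HEK-CT replicate 3), ZNF670 was at -0.44 with overlapping groups (adjusted p = 0.0633), and ZNF124 and ZNF496 were at -0.10 and 0.01 (adjusted p = 0.277 and 0.957). In the run ZNF786 to ZNF862 of chromosome 7, ZNF767P, a pseudogene, fell by 0.33 (adjusted p = 0.0271), ZNF467 rose by 0.32 (adjusted p = 0.0391), and the other 8 genes lay between -0.26 and 0.11 without a call. The runs ZNF354A to ZNF354C of chromosome 5, ZNF251 to ZNF252P-AS1 of chromosome 8 and ZNF367 to ZNF782 of chromosome 9 held no call, with medians of -0.20, -0.14 and -0.16. The ZNF genes of these 3 runs that lay farthest below 0 were ZNF354A at -0.21 (adjusted p = 0.0817), ZNF34 at -0.35 (adjusted p = 0.0756) and ZNF367 at -0.20 (adjusted p = 0.112).

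By chromosome, the lower calls were uneven. Chromosomes 3 and 12 had 6 each, of 18 and 11 ZNF genes, chromosome 7 had 5 of 29, and chromosomes 5 and 10 had 4 of 12 and 4 of 18. Of the other genes, 5.14%, 4.74%, 4.23%, 10.9% and 7.11% were lower on chromosomes 3, 12, 7, 5 and 10. Chromosomes 1 and 6 had 3 each, of 21 and 10 genes, chromosomes 16 and 17 had 2 each, of 30 and 11, and chromosomes 4, 8 and 11 had 1 each, of 6, 17 and 6. Those shares of other genes were 5.50% and 6.21% on chromosomes 1 and 6, and 1.92% and 3.99% on chromosomes 16 and 17. On chromosomes 4, 8 and 11 they were 3.98%, 4.51% and 4.17%. The higher calls lay on chromosomes 7 and 8, with 2 each, and on chromosomes 10 and 22, with 1 each. Of the other genes there, 8.3%, 8.5%, 8.8% and 8.4% were higher. Chromosomes 2, 9, 14, 15 and 20, with 8, 10, 3, 7 and 12 ZNF genes, had no ZNF call. The median log2 difference of the ZNF genes was below 0 on 15 of the 18 chromosomes and below that of the other genes on 17, the exception being chromosome 22 with 4 ZNF genes. On chromosome 5, where 10.9% of the other genes were lower too, the ZNF median was -0.21 and that of the other genes -0.01. On chromosome 16, the 30 ZNF genes had a median of 0.03 and the other genes one of 0.04. The counts of single chromosomes rested on few genes and arrays: the 4 lower calls of chromosome 5 were 2 without HEK-BAHD1 replicate 1, HEK-BAHD1 replicate 2, HEK-CT replicate 2 or HEK-CT replicate 3, and the 5 of chromosome 7 were 3 without HEK-BAHD1 replicate 1 or HEK-CT replicate 2. The 3 of chromosome 6 were 1 without HEK-BAHD1 replicate 1, HEK-BAHD1 replicate 3 or HEK-CT replicate 2, and the 3 of chromosome 1 were 1 without HEK-CT replicate 3. Lower calls over all probe sets were 2.76% to 4.45% when 1 array was left out, against 6.39% with all arrays.

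**Figure D4:**
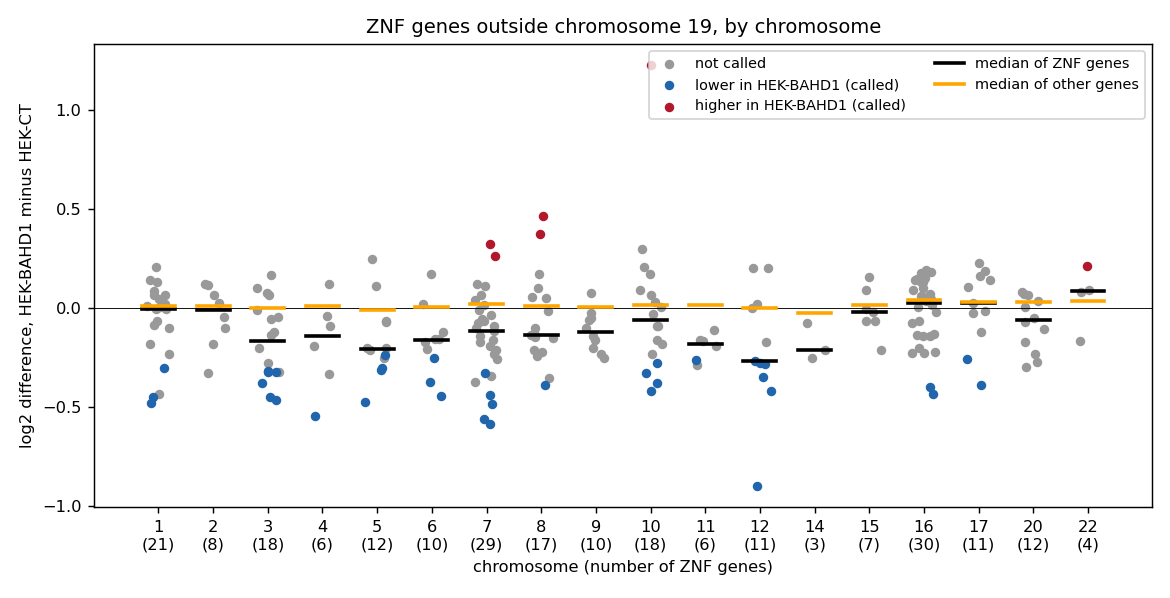
Log2 difference of HEK-BAHD1 minus HEK-CT (vertical axis) of each ZNF gene by chromosome (horizontal axis, with the number of genes); blue and red points are called lower and higher, grey points are not called, black lines are medians of the ZNF genes and orange lines medians of the other measured genes of that chromosome. The black line lies below the orange line on 17 of the 18 chromosomes, and the lowest point is ZNF10 on chromosome 12.

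Several large falls lay outside the runs. ZNF131, a BTB-domain zinc finger protein, read 8.91, 8.93 and 8.87 on the arrays labelled HEK-BAHD1, against 9.36, 9.41 and 9.37 on those labelled HEK-CT, and was among the 5 brightest of the 233 genes (log2 difference -0.48, SE 0.051, adjusted p = 0.00205). ZNF678 read 6.81, 6.79 and 6.91 on the arrays labelled HEK-BAHD1, against 7.28, 7.33 and 7.34 on those labelled HEK-CT (log2 difference -0.48, adjusted p = 0.00289), with its second probe set at -0.15 (adjusted p = 0.351). ZNF713 read 5.01, 5.05 and 5.35 on the arrays labelled HEK-BAHD1, against 5.68, 5.63 and 5.55 on those labelled HEK-CT (log2 difference -0.48, adjusted p = 0.0180). ZNF678 and ZNF131 kept their calls whichever array was left out, and ZNF713 kept its call in 2 of 6 removals. Other called falls outside the runs were those of ZNF232 on chromosome 17 (-0.39, adjusted p = 0.0270), ZNF707 (-0.39, adjusted p = 0.0444) and ZNF195 on chromosome 11 (-0.26, adjusted p = 0.0401), each of which lost its call in most removals. The calls of ZNF830 on chromosome 17 and of ZNF292 on chromosome 6 rested on log2 differences of -0.26 and -0.25 (adjusted p = 0.0388 and 0.0403), and each kept its call in only 1 of 6 removals.

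The rises were few, and that of ZNF22, a small C2H2 zinc finger gene, was the largest. It read 5.64, 5.91 and 5.12 on the arrays labelled HEK-BAHD1, against 4.22, 4.41 and 4.36 on those labelled HEK-CT. The groups did not overlap, though the spread was wider on the arrays labelled HEK-BAHD1 (SD 0.40, against 0.098 on those labelled HEK-CT). The log2 difference was 1.23, a 2.34-fold rise (SE 0.18, adjusted p = 0.00620), and it was called whichever array was left out. ZNF22-AS1, the antisense transcript beside it, read 3.82, 3.77 and 3.76 on the arrays labelled HEK-BAHD1, against 3.61, 3.54 and 3.58 on those labelled HEK-CT. Its difference of medians, 0.19, missed the threshold (adjusted p = 0.0397). The 250 bases before the start of ZNF22, at chr10:45000673-45000922 on the plus strand, are shown because this was the only ZNF gene called above a median difference of 0.5 in this direction, with a GC box (GGGCGG) in capitals. No match to CCAAT or ANNTGTAGT was found in them.
ZNF22: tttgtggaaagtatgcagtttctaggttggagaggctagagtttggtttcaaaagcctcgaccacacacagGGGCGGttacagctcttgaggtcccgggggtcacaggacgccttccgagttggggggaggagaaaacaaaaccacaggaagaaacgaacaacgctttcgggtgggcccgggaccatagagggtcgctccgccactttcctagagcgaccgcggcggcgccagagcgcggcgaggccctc

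ZNF395, a transcription factor responsive to hypoxia, read 7.49, 7.50 and 7.47 on the arrays labelled HEK-BAHD1, against 7.03, 6.95 and 7.09 on those labelled HEK-CT (log2 difference 0.46, SE 0.057, adjusted p = 0.00316). ZNF704 read 6.65, 6.72 and 6.77 on the arrays labelled HEK-BAHD1, against 6.40, 6.30 and 6.32 on those labelled HEK-CT (log2 difference 0.37, adjusted p = 0.00816). Both were called whichever array was left out. ZNF467, ZNF775 and ZNF74 rose by 0.32, 0.26 and 0.21 (adjusted p = 0.0391, 0.0356 and 0.0378), and each lost its call in at least 5 of the 6 removals.

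Of the 38 lower genes, 15 were called whichever array was left out, 23 lost the call in at least 1 removal and 4, ZNF35, ZNF644, ZNF195 and ZNF300, in all 6. No called gene changed sign. The genes that held were ZNF10, ZNF680, ZNF107, ZNF721, ZNF678, ZNF131, ZNF852, ZNF391, ZNF92, ZNF75A, ZNF268, ZNF37BP, ZNF597, ZNF37A and ZNF346.

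**Figure D5:**
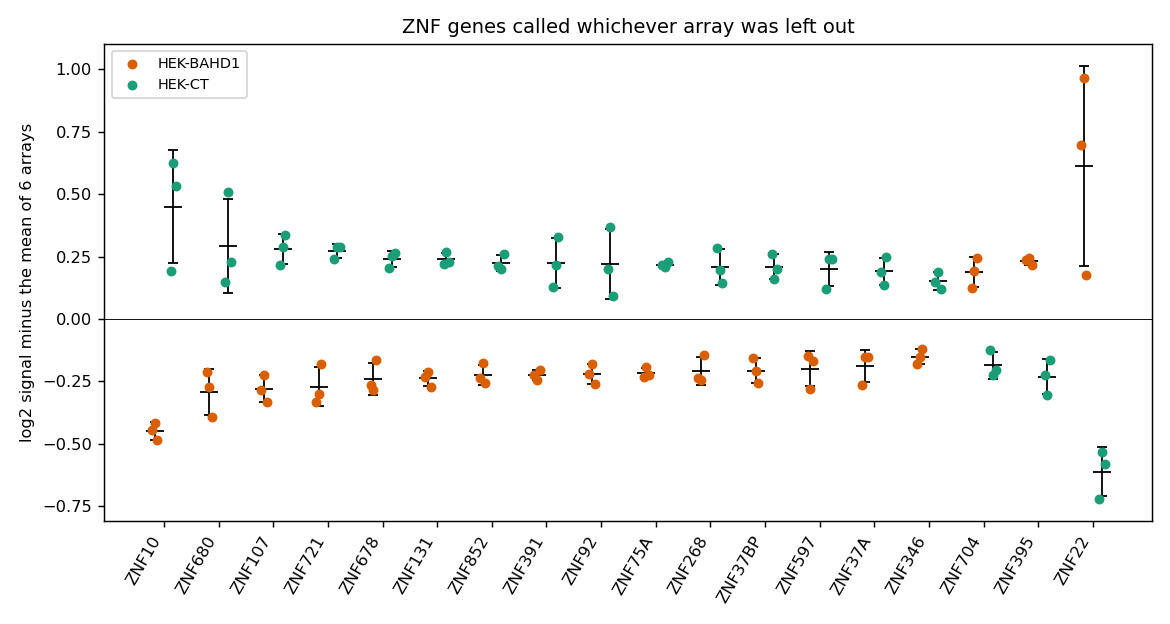
Log2 signal of each array minus the mean of the 6 arrays (vertical axis) for the 18 ZNF genes called whichever array was left out, HEK-BAHD1 in orange and HEK-CT in green; points are arrays and bars give the mean and SD of 3 arrays. The 15 lower genes stand left of the 3 higher genes ZNF704, ZNF395 and ZNF22, and the groups do not overlap in any of them.

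ZNF genes with known roles outside KRAB repression were counted apart. Of 19 that act in transcription or corepressor complexes, 1 was lower and 1 higher (5.26% each), against 6.39% and 6.79% of all probe sets. At an unadjusted p under 0.05, 5 were lower and 3 higher (26.3% and 15.8%, against 14.8% and 14.5%). By the LPE (local pooled error) test, in which errors are pooled over genes of like signal, 3 were lower and 1 higher, and the test called 7.41% of all probe sets lower and 6.29% higher. The lower gene was ZNF644, a partner of the H3K9 methyltransferases EHMT1 and EHMT2, which read 9.53, 9.60 and 9.36 on the arrays labelled HEK-BAHD1, against 9.75, 9.91 and 9.74 on those labelled HEK-CT (log2 difference -0.30, adjusted p = 0.0470). The higher gene was ZNF395. ZNF410, an activator of CHD4, was at -0.21 with a difference of medians of -0.20, on the threshold (adjusted p = 0.0468). ZNF335, ZNF219 and ZNF143 were at -0.30, -0.25 and -0.19 (adjusted p = 0.0567, 0.0746 and 0.141), and the remaining 13 lay between -0.09 and 0.18.

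Of 11 that act on RNA, translation or protein modification, 2 were lower (18.2%) and 0 higher, against 6.39% and 6.79% of all probe sets. At an unadjusted p under 0.05, 3 were lower and 1 higher (27.3% and 9.09%, against 14.8% and 14.5%). By the LPE test 2 were lower and 0 higher, against 7.41% and 6.29% of all probe sets. ZNF346, which binds double-stranded RNA, read 8.34, 8.37 and 8.40 on the arrays labelled HEK-BAHD1, against 8.67, 8.71 and 8.64 on those labelled HEK-CT (log2 difference -0.30, SE 0.052, adjusted p = 0.0108). ZNF622, a maturation factor of the large ribosomal subunit, read 8.79, 8.76 and 8.83 on the arrays labelled HEK-BAHD1, against 9.02, 9.23 and 9.07 on those labelled HEK-CT (log2 difference -0.31, adjusted p = 0.0246). ZNF207, a mitotic spindle protein and the brightest of all 233 genes, read 10.68, 10.69 and 10.55 on the arrays labelled HEK-BAHD1, against 10.64, 10.69 and 10.66 on those labelled HEK-CT, and the groups overlapped (log2 difference -0.02, adjusted p = 0.839). Of the other brightest genes, ZNF512 was at 0.03 (adjusted p = 0.788) and ZNF330 at -0.19 (adjusted p = 0.0602).

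The partners through which KRAB zinc finger proteins repress were measured in the same fit. Of 24 listed genes, 4 were lower (16.7%) and 0 higher, against 6.39% and 6.79% of all probe sets. At an unadjusted p under 0.05, 7 were lower (29.2%) and 4 higher (16.7%), against 14.8% and 14.5%. By the LPE test 4 were lower and 0 higher, against 7.41% and 6.29% of all probe sets. TRIM28 and SETDB1 were at 0.03 and -0.03 (adjusted p = 0.779 and 0.780). ATF7IP, the partner of SETDB1, read 9.53, 9.63 and 9.40 on the arrays labelled HEK-BAHD1, against 9.93, 9.88 and 9.90 on those labelled HEK-CT (log2 difference -0.38, SE 0.069, adjusted p = 0.0128), and was called whichever array was left out. MBD1, a methyl-CpG binding protein that binds ATF7IP, fell by 0.31 (adjusted p = 0.0120), DNMT1, the maintenance DNA methyltransferase, by 0.27 (adjusted p = 0.0384), and MPHOSPH8, a reader of H3K9 methylation, by 0.25 (adjusted p = 0.0445). DNMT3A and CHD3 were at 0.20 and 0.22 with differences of medians that did not exceed the threshold (adjusted p = 0.0392 and 0.0401). The calls fell to 1 without HEK-CT replicate 3 and to 2 without HEK-BAHD1 replicate 1, HEK-BAHD1 replicate 3 or HEK-CT replicate 1. In those fits 2.76%, 3.07%, 3.07% and 3.80% of all probe sets were lower.

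Other C2H2 families on the same chromosomes were set beside the ZNF genes. Of 85 genes with symbols beginning with ZSCAN, ZKSCAN, ZFP, ZBTB or KLF, 12 were lower (14.1%) and 2 higher (2.35%), against 6.39% and 6.79% of all probe sets, with a median log2 difference of -0.06. Lower calls were 3 of 12 ZSCAN genes, 1 of 7 ZKSCAN, 1 of 17 ZFP, 5 of 35 ZBTB and 2 of 14 KLF genes. The largest fall was that of ZFP37, which read 5.81, 5.41 and 5.73 on the arrays labelled HEK-BAHD1, against 6.34, 6.41 and 6.17 on those labelled HEK-CT (log2 difference -0.66, adjusted p = 0.0110). The list goes by symbol alone, so it also holds ZBTB8OS, ZFP36L1, ZFP36L2 and ZFPL1, which encode no C2H2 zinc finger protein, and the long non-coding RNAs KLF3-AS1, ZBTB11-AS1 and ZBTB44-DT. Of these 7, ZBTB8OS was called. The lower calls were 7 without HEK-CT replicate 1 or 2 and 6 without HEK-CT replicate 3, and the higher calls were 0 without HEK-BAHD1 replicate 2, HEK-CT replicate 2 or HEK-CT replicate 3 and 1 without HEK-BAHD1 replicate 3 or HEK-CT replicate 1. Across the removals of 1 array, 2.76% to 4.45% of all probe sets were lower and 3.83% to 4.45% higher.

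The 250 bases before the start were compared for the 180 ZNF genes with an entry, which had 244 windows. The ZNF143 core ANNTGTAGT occurred in 9.02% of these windows, in 15.6% of those of ZNF genes on chromosome 19, in 3.41% of those of protein-coding genes and in 3.22% of all 35116 windows. The chromosome 19 set here was all 304 ZNF genes of RefSeq on it, 252 of them with a window, and not the 237 measured genes alone. The ETS site CCGGAAG occurred in 25.8% of the ZNF windows and 8.52% of all windows, the CCAAT box in 39.8% and 32.0%, the NRF1 core GCATGCGC in 5.33% and 2.63%, and the TATA box TATAAA in 4.1% and 10.7%. In the same order, the shares were 28.7%, 46.3%, 4.23% and 2.93% for the chromosome 19 ZNF windows. For protein-coding genes they were 10.7%, 32.7%, 3.26% and 9.0%. Each motif was searched on both strands, and motifs may overlap. Among ZNF windows, the ZNF143 core was found in 13.5% for the genes called lower and 7.88% for those not called, and the CCAAT box in 51.4% and 37.9%. The windows of called genes were few, 37 for lower and 4 for higher genes, and these shares are given as a description. Within the lower genes the ZNF143 core was found for ZNF140, ZNF268, ZNF26, ZNF605 and ZNF37A, and among the higher genes for ZNF74. ZNF143 itself was not called.

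Values close to the threshold show how narrow some calls were. ZNF300 lay just inside, at 7.19, 7.36 and 7.30 on the arrays labelled HEK-BAHD1 and 7.46, 7.57 and 7.53 on those labelled HEK-CT (adjusted p = 0.0499). ZNF501 lay just outside, at 6.43, 6.45 and 6.52 on the arrays labelled HEK-BAHD1 and 6.62, 6.89 and 6.73 on those labelled HEK-CT (adjusted p = 0.0512). ZNF410, ZNF354C and ZNF22-AS1 passed on p and not on the difference of medians. A second probe set existed for 9 genes and none of these was called.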

How the data were processed

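Total RNA of the 2 lines was hybridised to Affymetrix HuGene 1.0 ST arrays, 3 per line. The authors summarised probe intensities with RMA, and the deposited values are log2 signals with 2 decimals. No source used here gives the RMA version. The series has another number than the paper gives for its arrays and was taken as the same experiment because lines and replicates match. Of 28869 probe sets, 19310 named 1 gene, 1752 several and 7807 none, and the 21062 naming a gene were tested. The 41 probe sets that list a ZNF gene among several genes were left out of the members. A gene was read from its brightest probe set, by the mean of 6 arrays. Chromosomes and gene order came from the RefSeq table of GRCh38.p14, and upstream sequences from its promoter windows.

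Probe sets were fitted with limma 3.58.1 (R 4.3.3), HEK-BAHD1 against HEK-CT without a block, with the Benjamini-Hochberg adjustment over 21062 probe sets. Calls joined an adjusted p under 0.05 with a difference of group medians above 0.2, a threshold taken from the methods of the paper. The LPE test, which the methods name, was written anew, with 100 bins of signal and 10 degrees of freedom for its spline. Other alternatives were scalings, filters, variance models, thresholds, the replicate block and leaving out each array. The methods were tested on simulated arrays. No protein sequences were used here, so the planned classes by protein sequence were not run, and promoter windows were examined in their place, a choice made after seeing the data. The members and gene lists were chosen with earlier results of these data known. Genes named were the largest falls and rises called, the largest call per chromosome, the 5 brightest, the members of runs, called members of the lists and those next to the threshold. Arrays give no counting depth, and their number limits the precision. The other data types of the study were not used here.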

Additional observations from a re-analysis of the deposited data

How the results depend on the processing

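With 3 arrays per line, small differences were not resolved, and dim genes (at or below a log2 signal of 5.86) gave 3 calls. Of the alternatives for the 233 genes, the LPE test gave 41 lower and 5 higher, quantile normalization applied again 43 and 5, the fit without the dimmest 30% of probe sets 49 and 7 (198 of the 233 genes were in it), the fit to probe sets naming 1 gene 39 and 6, eBayes with trend and robust settings 49 and 7, and no threshold on medians 40 and 7. The shares over all probe sets moved as well. They were 7.41% lower and 6.29% higher with the LPE test, and 6.32% and 6.85% with quantile normalization. Without the dimmest they were 10.66% and 10.65%, and with probe sets naming 1 gene 6.375% and 7.11%. Trend and robust settings gave 8.15% and 7.55%, and no threshold on medians 6.77% and 7.11%. Centring the arrays on their medians gave 55 lower and 3 higher, with a median log2 difference of -0.13. Over all probe sets it gave 1125 higher and 1912 lower calls, beside 1430 higher and 1345 lower without it. Testing all probe sets gave 27 lower and 3 higher, and a threshold of 0.5 on medians gave 6 lower and 1 higher. Of the probe sets in those fits, 3.58% were lower and 3.95% higher with all probe sets. With the threshold of 0.5 the shares were 1.08% and 1.59%. Of the 38 lower genes, 38 remained called with centring, 33 with the LPE test and 27 with all probe sets. The same-numbered arrays did not deviate together (correlations of -0.077, 0.074 and -0.038), and whether they shared any handling was not tested. The supplement gives the same passage for HEK-CT and HEK-BAHD1 replicate 1 and a later passage for HEK-BAHD1 replicate 2. With the replicate block, 27 genes were lower and 4 higher, against 3.94% and 4.57% of all probe sets. Without 1 array, 20 to 30 were lower and 3 to 5 higher, against 2.76% to 4.45% and 3.83% to 4.45% of all probe sets. Every named gene that was called kept the sign of its difference under these settings.

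Lower calls on chromosomes 3, 5, 7, 10 and 12 (6, 4, 5, 4 and 6) were 1, 0, 2, 0 and 1 with a threshold of 0.5, and ranged without 1 array from 1 to 5, 2 to 3, 3 to 4, 2 to 4 and 3 to 5. On chromosome 3 they were 3 with all probe sets and 2 with the replicate block, on chromosome 5 there were 2 with the replicate block, and on chromosome 7 there were 8 without the dimmest probe sets.

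The KRAB partner genes called lower were 4, then 2 with all probe sets or the replicate block, 0 with the threshold of 0.5 and 1 to 3 without 1 array, and those called higher were 1 with quantile normalization and 2 with no threshold on medians. The ZNF genes acting in transcription had 1 lower call, and 3 with the LPE test or without the dimmest probe sets, 4 with centring, 2 with trend and robust settings or with no threshold on medians, 0 with all probe sets or a threshold of 0.5, and 0 to 1 without 1 array. Their 1 higher call was lost with the threshold of 0.5, which left 0. Those acting on RNA had 2 lower calls, 0 with the threshold of 0.5, 1 with the replicate block and 1 to 2 without 1 array. The other C2H2 families had 12 lower calls, 1 with the threshold of 0.5, 7 with the replicate block and 6 to 9 without 1 array. Their 2 higher calls were 1 with the LPE test, with centring or with all probe sets, 4 without the dimmest probe sets, 0 with the threshold of 0.5 or the replicate block, and 0 to 2 without 1 array. The causes of these shifts were not tested.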
